A study of Mus musculus with 12 samples.

Results

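Hair follicle bulge cells sorted by the brightness of a Per1-Venus reporter were compared on 6 of the 12 microarrays of the series: 3 of clock-positive cells, with bright Venus, and 3 of clock-negative cells, with dim Venus. The genes described are those read by a probe set that had values on all 6 arrays and carried exactly 1 gene symbol, which holds for 21640 of the 35512 probe sets in the value table and gives 19937 genes. Both sorts came from dorsal skin of untreated Per1-Venus mice, which carry the fluorescent protein Venus as a reporter of the clock gene Per1, at 18 to 19 days of age. Cells of both sorts were alpha6bright and CD34+, so the surface proteins integrin alpha 6 and CD34 were part of the gate on either side. Each sample pooled cells of about 20 mice, and nothing in the labels links a pool of one sort to a pool of the other. A label of the clock-negative samples names a Venus-high gate as well, against their titles; the groups here follow the titles and the design. The remaining 6 arrays hold basal interfollicular epidermis of older mice and are not used here. The time of day at which the cells were taken is not given in the sources used here.

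The circadian clock is a loop of transcription in which the activators CLOCK and BMAL1 (gene symbol Arntl) bind E-box sequences and drive the Per and Cry genes, whose proteins repress the activators; further loops run through the REV-ERB and ROR nuclear receptors and through factors that bind D-box sequences. The bulge is the niche of hair follicle stem cells, which rest for most of the hair cycle and are known for Cd34, Lgr5, Krt15, Lhx2, Sox9, Nfatc1 and Tcf7l1. When the cycle starts, cells next to the bulge are activated by Wnt and TGF-beta signals while BMP signals keep bulge cells at rest. Differentiated follicle cells make hair keratins, keratin-associated proteins and trichohyalin, and differentiated epidermal cells make the cornified envelope.

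Values are log2 intensities, in which a step of 1 is a factor of 2, and an array has no read depth, so the number of arrays limits the precision. As deposited, the interquartile range was 2.93 to 2.98 on the clock-positive arrays and 2.50 to 2.64 on the clock-negative arrays, and the median difference between the sorts ran with level from −0.24 among probe sets of middling level to 0.23 among bright ones, over 10 bins of level. After cyclic loess, a smoothing that removes differences between arrays that depend on level, these medians lay between −0.05 and 0.03 and the interquartile ranges between 2.74 and 2.80. All values below are corrected in this way unless they are called deposited. The first principal component of the tested genes parted the sorts and held 78.9% of the variance. Clock-negative arrays 1 and 2 lay furthest apart on the second, at 10.0 and −8.9, which held 8.52%.

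**Figure D1:**
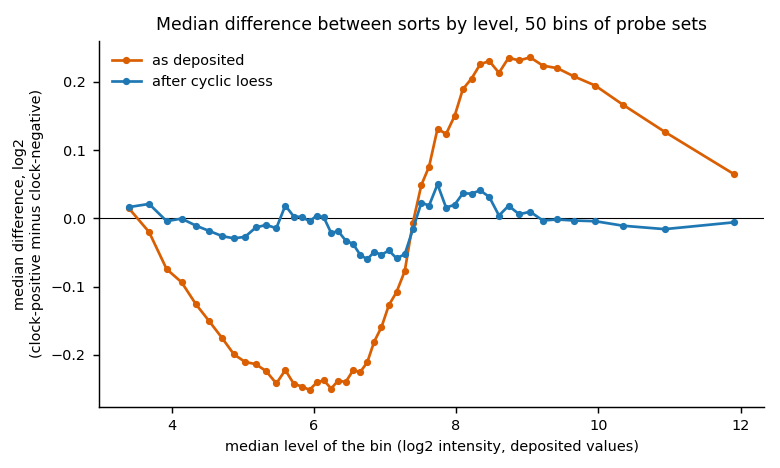
Median difference in log2 intensity (clock-positive minus clock-negative, vertical axis) against the median level of 50 equal bins of probe sets (horizontal axis), as deposited and after cyclic loess. The deposited curve falls below 0 at low levels and rises above 0 at high levels, and the corrected curve stays close to 0.

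Of 13956 genes tested after the dimmest 30% were left out, 3524 (25.3%) were higher and 2201 (15.8%) lower in clock-positive cells at an adjusted p under 0.05 in limma, 5725 in all (41.0%). Most of the differences were small. A fold of at least 1.5 was reached by 487 genes that were higher (3.49%) and 252 that were lower (1.81%), 739 in all (5.30%). Of the called genes, 5627 had all 3 values of one sort above all 3 of the other, as did 7534 of all tested genes. The share of calls that were higher was 61.6%, and it was 86.8% after centring each array on its median (8919 higher, 1356 lower) and 51.0% when the smoothing was fitted on probe sets with 1 symbol alone (2886 and 2771). Of the 739 genes past the fold, 731 kept their call and direction under every one of 17 other ways of processing that tested them, and of all 5725 called genes 2988 did. A call is described below as kept where it held in this sense. Of the higher calls 2161 were kept and of the lower calls 827. The ways include median centring, which moves the median change of all genes to 0.29, so that small falls are seldom kept, and a lower call that was not kept is no sign in itself of a weaker difference. The median change of all tested genes was 0.03.

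The genes that mark the cells were read clearly in both sorts and most were higher in the clock-positive one. Cd34, the surface protein of the gate, read 10.87, 10.88 and 10.90 on clock-positive arrays 1 to 3 and 9.59, 9.59 and 9.68 on clock-negative arrays 1 to 3. Values of other genes are given in the same order. The clock-positive arrays lay far above the others, by 1.26 ± 0.05 (standard error of the fit, 3 arrays a sort, as for all values after ± below; 2.40-fold, adjusted p = 1.39e-06). Lgr5, a receptor for R-spondins that marks cycling stem cells, read 9.93, 9.95 and 10.03 against 8.85, 8.85 and 8.85. The sorts did not overlap and the difference was 1.12 ± 0.05 (adjusted p = 2.31e-06). Id2, an inhibitor of DNA binding by bHLH factors, read 10.09, 10.02 and 10.06 against 8.71, 8.65 and 8.78, a gap of 1.34 ± 0.05 that was wide beside the spread within either sort. Angptl7, a secreted angiopoietin-like protein, read 11.07, 11.09 and 11.01 against 8.99, 9.05 and 9.02. At 2.03 ± 0.05, or 4.10-fold, it was the second largest rise of a named gene. In bulk samples such as these, fewer cells that make an RNA and less of it per cell cannot be told apart.

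Per1 itself, whose reporter defined the sorts and which is therefore no independent measure, differed far less than these. It read 9.64, 9.63 and 9.70 against 9.40, 9.38 and 9.30. The sorts did not overlap, and the difference was 0.30 ± 0.05 (1.23-fold, adjusted p = 0.00279).

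Scrg1, a small secreted protein, rose most of all named genes, from 6.0, 5.90 and 6.14 in clock-negative to 8.32, 8.38 and 8.50 in clock-positive cells (2.39 ± 0.07, 5.23-fold, adjusted p = 1.02e-06). Camk4, a calcium- and calmodulin-dependent kinase, read 8.78, 8.67 and 8.83 against 6.92, 6.97 and 6.94 (1.82 ± 0.06). The keratin Krt24 read 10.26, 10.26 and 10.15 against 8.61, 8.42 and 8.51 (1.71 ± 0.06). In all 3 the sorts stood apart by many times the spread of their arrays. The other genes among the 25 that rose most fall into several kinds. Secreted and surface proteins were Mia at 1.87 ± 0.13, the neprilysin gene Mme, which encodes a membrane peptidase, at 1.33 ± 0.09, the protease inhibitors Wfdc3 at 1.33 ± 0.05 and Spink2 at 1.28 ± 0.06, the growth factor Fgf1 at 1.32 ± 0.09 and the leucine-rich repeat protein Lrrn3 at 1.37 ± 0.09. Enzymes were the glycosyltransferase Mgat4a at 1.55 ± 0.13, the kinase Dapk2 at 1.45 ± 0.06, Hpgd, which inactivates prostaglandins, at 1.35 ± 0.08, and the pyrimidine-breakdown enzymes Upb1 and Dpyd at 1.48 ± 0.09 and 1.32 ± 0.06. Upb1 and Dpyd act in the same pathway, Dpyd at its first step and Upb1 at its last. Proteins of the actin cytoskeleton were the myosin light chain Myl9 at 1.35 ± 0.11 and the profilin Pfn2 at 1.34 ± 0.12. The calcium-binding protein S100a4 read 11.60, 11.65 and 11.54 against 10.15, 10.15 and 10.24 (1.42 ± 0.06). Pdzrn4 (1.62), Fam171b (1.5), Pakap (1.49), Ccdc71l and Slc7a8, a carrier of neutral amino acids (1.3 each), and Itm2a (1.29) completed the 25. All 25 calls were kept.

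**Figure D2:**
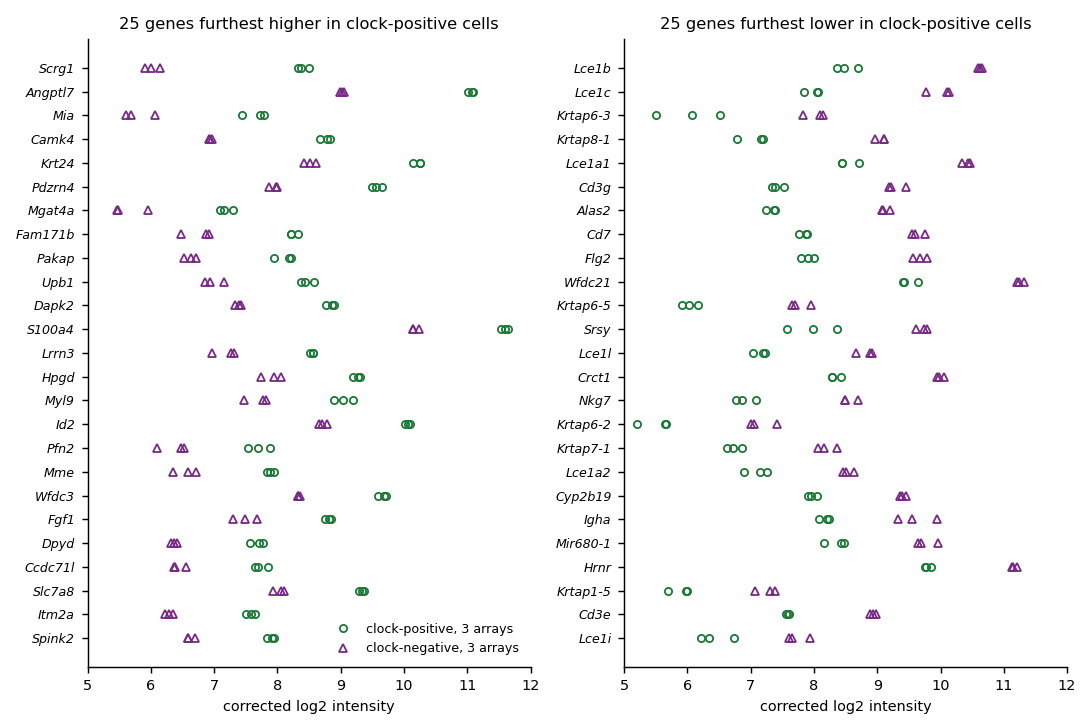
Corrected log2 intensity (horizontal axis) on each array for the 25 called named genes that rose most (left) and fell most (right) in clock-positive cells. Circles are the 3 clock-positive arrays and triangles the 3 clock-negative arrays. In every row the circles and triangles are apart, as the rule that chose the genes required.

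Genes known from the bulge were mostly higher in clock-positive cells. This list and those below were written with earlier results of these data known. Their counts describe the listed genes and are no independent support. Of 19 surface and secreted bulge proteins tested, 16 were higher and 1 lower, against 25.3% and 15.8% of all genes, with a median change of 0.73, and 13 of the 16 calls were kept. The same shares of all genes are to be set beside every list count below. Some genes, such as Ltbp2, Lef1 and Hoxc13, stand in more than 1 list, so the counts of different lists are not separate results. Dkk3, a secreted protein of the Dickkopf family, read 10.19, 10.19 and 10.16 against 9.09, 9.08 and 9.11 (1.09 ± 0.05), with no overlap. Fgf18, a growth factor made by the resting bulge, was higher by 1.01 ± 0.06, Ltbp2, which belongs to the latent TGF-beta binding proteins, by 0.97 ± 0.05, Grem1, a BMP antagonist, by 0.96 ± 0.05, and Igfbp5 and Cd200 by 0.73 ± 0.05 and 0.69 ± 0.07. Krt15, a keratin used to mark the bulge, was read at 12.83, 12.83 and 12.84 against 12.69, 12.66 and 12.62. It rose by only 0.18 ± 0.05 (adjusted p = 0.0186), and when all arrays were scaled to the same spread its change was −0.47. Itga6, the integrin of the gate, was the member that fell, from 10.68, 10.67 and 10.75 in clock-negative to 10.41, 10.43 and 10.32 in clock-positive cells (−0.32 ± 0.05), a call that was not kept. Bdnf (0.06 ± 0.08) and Wif1 (0.07 ± 0.06), a Wnt inhibitor of the bulge, overlapped between the sorts and did not pass.

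All 12 transcription factors of the bulge list were higher, with a median of 0.53, and 11 of the 12 calls were kept. Tcf7l1, a repressor of Wnt target genes, read 8.83, 8.75 and 8.83 against 7.88, 7.88 and 7.89 (0.92 ± 0.05). Lhx2, which maintains the bulge niche, read 10.85, 10.87 and 10.90 against 9.92, 10.04 and 9.99 (0.89 ± 0.05). Foxc1, which holds stem cells at rest, read 8.20, 8.06 and 8.37 against 7.36, 7.30 and 7.38 (0.86 ± 0.08). None of the 3 overlapped between the sorts. Sox9 was higher by 0.65 ± 0.05, Runx1 by 0.63 ± 0.05, Foxp1 by 0.54 ± 0.05, Nfatc1, a calcium-regulated factor that restrains the cell cycle, by 0.53 ± 0.06, Vdr by 0.51 ± 0.05, Tcf7l2 by 0.49 ± 0.06 and Tbx1 by 0.40 ± 0.05. Hopx (0.27) and Nfib (0.28) rose least.

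Among 12 factors of the hair germ and hair lineages, 6 were higher and 0 lower, and all 6 calls were kept: Hoxc13 (0.83 ± 0.09), Msx2 (0.60 ± 0.06), Trps1 (0.59 ± 0.07), the Wnt effector Lef1 (0.57 ± 0.07), Dlx3 (0.55 ± 0.06) and Cdh3, the P-cadherin of the hair germ (0.43 ± 0.06). Shh was at −0.17 ± 0.11 and did not pass. Of 7 genes of the upper follicle, 1 was higher, Lgr6 (0.26 ± 0.06), and 3 were lower, of which the keratin Krt79 of the follicle opening fell most, by 0.59 on the log2 scale. With deposited values 3 of the 7 were higher and 1 lower. Lrig1, which marks stem cells above the bulge, overlapped between the sorts at 0.05 ± 0.05.

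In the Wnt pathway the receptors and the ligands differed in opposite directions. Of 10 Frizzled receptors, 8 were higher and 0 lower, with 6 calls kept, a median of 0.48 and the same counts with deposited values. Fzd3 read 8.68, 8.62 and 8.70 against 7.64, 7.5 and 7.47 (1.13 ± 0.06, adjusted p = 5.46e-06). Fzd2 read 10.51, 10.56 and 10.63 against 9.41, 9.53 and 9.50 (1.09 ± 0.06). The sorts lay well apart for both. Fzd8 (0.71 ± 0.07), Fzd7 (0.66 ± 0.05), Fzd1 (0.53 ± 0.08) and Fzd4 (0.42 ± 0.07) were also higher, while Fzd6 and Fzd10 were at −0.11 and −0.19 and did not pass. Of 16 Wnt ligands, 0 were higher and 7 lower, with 3 calls kept. Wnt16 read 7.72, 7.60 and 7.60 against 8.07, 8.30 and 8.25 (−0.57 ± 0.07), Wnt9b fell by 0.51 on the log2 scale and Wnt10b by 0.35. These falls are no larger than those of olfactory receptor genes described further on, and ligands and receptors were listed apart after their values were seen.

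Wnt antagonists and targets gave no common direction. Of 13 secreted antagonists, 3 were higher and 2 lower, shares near those of all genes. Beside Dkk3, Sfrp1, which binds Wnt proteins, read 10.58, 10.66 and 10.78 against 9.97, 10.06 and 10.00 (0.66 ± 0.06). Sostdc1, which acts on Wnt and BMP signals, was higher by 0.29 ± 0.05. Apcdd1 and Dkk1 fell by 0.35 and 0.29 on the log2 scale, and neither call was kept. Of 11 target and feedback genes, 4 were higher, Lgr5, Lef1, Nkd1 (0.52 ± 0.06) and Nkd2 (0.30 ± 0.05), both inhibitors of Dishevelled, and all 4 calls were kept. Axin2, the target most used as a readout, read 9.39, 9.47 and 9.37 against 9.54, 9.62 and 9.61. The arrays did not overlap and the call was lower, at −0.17 ± 0.05 (adjusted p = 0.0295), but with deposited values Axin2 was at 0.04 (adjusted p = 0.533).

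TGF-beta genes were more often higher than all genes were. Of 23 ligands, receptors and binding proteins, 13 were higher and 1 lower, Tgfbr3, with 10 of the 13 calls kept and a median of 0.25. They were mainly proteins that bind the ligands outside the cell or inhibit the pathway. The latent binding proteins Ltbp2 (9.0, 8.98 and 8.96 against 7.99, 8.07 and 7.98), Ltbp4 (0.63 ± 0.06) and Ltbp3 (0.40 ± 0.05) rose, as did the activin chain Inhbb (0.81 ± 0.06), follistatin (Fst, 0.70 ± 0.05), which binds activins, Fstl1 (0.56 ± 0.05), and the intracellular inhibitors Smad7 (0.56 ± 0.07) and Skil (0.56 ± 0.08). The ligand Tgfb1 was higher by 0.29 ± 0.06 and the receptor Tgfbr1 by 0.34 ± 0.09. Tgfb2, a ligand known for the activation of hair germ cells, overlapped between the sorts at 0.09 ± 0.07, and the signal carriers Smad2, Smad3 and Smad4 were at −0.01, −0.04 and 0.01. Of 11 matricellular targets of TGF-beta and YAP, 9 were higher and 0 lower, with 7 calls kept. Ccn2, the connective tissue growth factor, read 10.14, 10.26 and 10.18 against 9.33, 9.24 and 9.19 (0.94 ± 0.06), Thbs1 was higher by 0.83 ± 0.05, Tnc by 0.55 ± 0.05 and Ccn1 by 0.39 ± 0.05.

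In the BMP pathway 7 of 21 genes were higher and 1 lower (12 and 3 with deposited values), with 5 of the 7 calls kept, and the median of 0.04 was close to that of all genes. The antagonists Grem1 (9.92, 10.01 and 10.03 against 9.02, 9.04 and 9.04) and Nog (7.93, 8.08 and 8.09 against 7.07, 7.44 and 7.52; 0.69 ± 0.11) rose. So did the ligands Gdf10, also called BMP3b (0.98 ± 0.17), and Bmp2 (0.71 ± 0.09), and the signal carrier Smad9 (0.80 ± 0.08). Bmp4 went the other way, from 8.92, 9.0 and 8.91 to 8.53, 8.55 and 8.58 (−0.39 ± 0.05), with no overlap, though the call was not kept. Bmp6, a ligand of the resting bulge, was at 0.12 ± 0.06 and the receptors Bmpr1a and Bmpr2 at 0.04 and 0.01, none of which passed. Of the 4 Id genes, targets of BMP signals, Id2 was joined by Id1 (0.70 ± 0.06) and Id3 (0.61 ± 0.06), all kept, while Id4 was at 0.16 ± 0.06 (adjusted p = 0.0651).

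Of 12 Hedgehog pathway genes tested, 5 were higher and 1 lower, with 4 of the 5 kept. Boc, a co-receptor, read 10.37, 10.38 and 10.33 against 9.54, 9.50 and 9.50 (0.85 ± 0.05), and the co-receptor Gas1 was higher by 0.44 ± 0.07. The factors Gli2 (8.71, 8.79 and 8.79 against 8.13, 8.05 and 8.06; 0.68 ± 0.05) and Gli3 (0.53 ± 0.06) did not overlap between the sorts either. Gli1 and Ptch1, the genes that Hedgehog signals switch on, were at 0.00 ± 0.05 and −0.01 ± 0.05, overlapped and did not pass; with deposited values they were at 0.22 and 0.21.

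FGF genes gave 6 higher and 1 lower of 16, and all 6 calls that were higher were kept. Beside Fgf1 (8.84, 8.82 and 8.75 against 7.49, 7.67 and 7.30) and Fgf18, the receptor Fgfr1 rose by 0.66 ± 0.05, and so did Spred1 (0.46 ± 0.06), Dusp6 (0.40 ± 0.07) and Etv5 (0.35 ± 0.08), a target and inhibitors of the signal. Fgfr2 was at −0.11 ± 0.05 and did not pass. The EGF receptor family gave 3 higher and 5 lower of 13, with 2 calls kept in each direction, and 4 higher and 2 lower with deposited values; the ligands Btc and Egf fell by 0.47 and 0.27 on the log2 scale and both calls were kept. Notch genes gave 4 higher and 4 lower of 20, shares near those of all genes, and 10 higher and 3 lower with deposited values. The calls that were higher were kept, among them the glycosyltransferase Lfng (0.58 ± 0.06), which tunes Notch receptors, the target Hey1 (0.47 ± 0.09) and the ligand Jag1 (0.28 ± 0.05). Notch3 fell by 0.24 on the log2 scale, and Notch1 (−0.12) and Hes1 (−0.06) did not pass.

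Of 27 Hox genes tested, 17 were higher and 1 lower, Hoxb1, with 15 of the 17 calls kept and a median of 0.31. Hoxd8 read 6.81, 6.91 and 7.15 against 6.13, 5.98 and 6.21 (0.85 ± 0.09), Hoxc13, which regulates hair keratin genes, 8.37, 8.34 and 8.44 against 7.73, 7.36 and 7.56, and Hoxa2 was higher by 0.77 ± 0.07. Hoxb9 (0.66 ± 0.08) and Hoxc8 (0.58 ± 0.06) were among the others. Members of all 4 Hox clusters were thus among the genes that rose. Sox factors gave 3 higher and 4 lower of 15, with Sox9 highest and Sox6 lowest, which fell by 0.50 on the log2 scale.

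Genes for contact with the matrix and with other cells moved in both directions. Of 28 integrins and laminins, 13 were higher and 4 lower, with 8 of the 13 calls kept (15 and 9 with deposited values); Itga1 (0.76 ± 0.08) and Itga5 (0.59 ± 0.08), receptors for collagen and fibronectin, rose most, and Itgb8 (0.48 ± 0.06) and Lamb3 (0.43 ± 0.05), a chain of laminin 332, also rose. Of 44 collagens, 10 were higher and 19 lower. Col12a1 read 9.22, 9.26 and 9.22 against 8.45, 8.43 and 8.43 (0.80 ± 0.05) and Col18a1 was higher by 0.57 ± 0.05, while Col26a1 fell most, by 0.59 on the log2 scale. Matrix proteases and inhibitors gave 8 higher and 5 lower of 24. Timp2, an inhibitor of matrix metalloproteinases, read 10.70, 10.62 and 10.65 against 9.42, 9.52 and 9.50 (1.18 ± 0.05), and the metalloproteinase Mmp2 was higher by 0.71 ± 0.06. Both were far apart between the sorts.

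The semaphorin Sema3e read 9.37, 9.28 and 9.35 against 8.32, 8.22 and 8.24 (1.07 ± 0.05). Of 27 semaphorins, plexins and neuropilins 7 were higher and 4 lower, shares near those of all genes (14 and 5 with deposited values). Nrp1 and Plxna2, receptors for semaphorins, were at 0.65 ± 0.08 and 0.65 ± 0.05. Of 17 ephrins and Eph receptors, 9 were higher and 1 lower, led by Efna5 (0.56 ± 0.07), with 5 of the 9 calls kept (14 and 2 with deposited values). Igfbp6, a binding protein of insulin-like growth factors, read 8.79, 8.80 and 8.96 against 7.72, 7.67 and 7.71 (1.15 ± 0.06); with Igfbp5 and Igfbp4 (0.61 ± 0.05) it made up the 3 higher of 9, all kept, while 2 were lower. Among 13 S100 proteins, 5 were higher and 2 lower, and with arrays scaled to the same spread 3 and 5; next to S100a4 the largest rise was that of S100a1 at 0.39 ± 0.06. The axon guidance receptor Robo1 fell by 0.50 on the log2 scale and the netrin Ntn4 was higher by 0.54 ± 0.07; of the 11 genes tested in that list 1 was higher and 2 were lower.

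Most clock genes differed little between sorts made with a clock reporter. Of 15 repressors and outputs, 4 were higher and 3 lower, shares near the 25.3% and 15.8% of all genes. All 4 higher calls were kept, while the 3 lower calls were not. With deposited values 7 were higher and 0 lower. Bhlhe41, a repressor that binds E-boxes, stood out: it read 7.40, 7.28 and 7.37 against 6.08, 5.99 and 6.18 (1.27 ± 0.06, 2.41-fold, adjusted p = 3.87e-06). Nfil3, which represses through D-boxes, read 9.25, 9.27 and 9.10 against 8.57, 8.39 and 8.31 (0.79 ± 0.08). Cry2 followed at 0.32 ± 0.05 and Per1 at 0.30 ± 0.05. The 3 lower calls were Wee1, a kinase that holds back mitosis (−0.30 ± 0.06), Per3 (−0.27 ± 0.05) and the D-box factor Hlf (−0.22 ± 0.05). With deposited values they were at −0.08, −0.06 and 0.00 and none passed. Per2 read 7.99, 7.96 and 7.91 against 7.99, 7.99 and 7.90, Nr1d1, the REV-ERB alpha gene, was at −0.11 ± 0.05, Cry1 at −0.12 ± 0.06 and the D-box factor Dbp at 0.06 ± 0.06, all short of the threshold. The related factor Bhlhe40 overlapped at 0.12 ± 0.09. Of 6 activators and regulators, 0 were higher and 1 lower, the receptor Rora (−0.18 ± 0.05, not kept), against 4 higher and 0 lower with deposited values; Arntl read 8.55, 8.67 and 8.61 against 8.64, 8.64 and 8.71 and Clock was at 0.13 ± 0.06.

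Per1 and Bhlhe41 are shown with the stretch before their start site, since both were higher and each holds an E-box of the letters CACGTG, in capitals below; this motif reads the same on both strands. The sequences are from RefSeq for the mouse build GRCm38.p6 and run 5′ to 3′ in the direction of the gene, to the base before the start. Per1 lies on the plus strand, its stretch at chr11:69098779-69098948, and Bhlhe41 on the minus strand, its stretch at chr6:145865421-145865580. Of 2 start sites listed for Per1, the stretch is that of the first; the same length before the second has no CACGTG.
Per1: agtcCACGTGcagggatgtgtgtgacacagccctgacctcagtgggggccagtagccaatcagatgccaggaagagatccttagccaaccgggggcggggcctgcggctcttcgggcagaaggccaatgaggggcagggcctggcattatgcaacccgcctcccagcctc
Bhlhe41: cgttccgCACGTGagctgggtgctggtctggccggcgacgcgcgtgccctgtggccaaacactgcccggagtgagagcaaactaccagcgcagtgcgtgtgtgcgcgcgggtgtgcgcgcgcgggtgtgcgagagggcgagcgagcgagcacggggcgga
The motif begins 166 bases before the start in Per1 and 153 bases before it in Bhlhe41. Of all 32851 promoters in the table, 4.67% hold CACGTG within 170 bases before the start and 4.5% within 160. Each length reaches just beyond the motif of its gene, and the genes are shown because they hold it. These shares therefore cannot tell how unusual the matches are. A match is a description of the letters and not a measured site. The stretches of the other clock genes are not shown, and whether the motif goes with a rise was not tested.

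Mitotic genes were mostly higher in clock-positive cells. Of 26 mitotic genes, 20 were higher and 0 lower, with 13 calls kept, a median of 0.30 and none at a fold of 1.5. The kinesin Kif11 read 8.39, 8.14 and 8.24 against 7.74, 7.63 and 7.70 (0.57 ± 0.07), the kinase Plk1 8.54, 8.55 and 8.65 against 8.20, 7.94 and 8.06 (0.51 ± 0.07), and the cyclin Ccna2 8.82, 8.86 and 8.79 against 8.4, 8.43 and 8.45 (0.40 ± 0.05). None of these overlapped. The checkpoint kinase gene Bub1 was higher by 0.56 ± 0.11, Foxm1, a factor that drives mitotic genes, by 0.40 ± 0.06 and the kinase Aurkb by 0.30 ± 0.05. Mki67, read at 8.74, 8.74 and 8.74 against 8.65, 8.58 and 8.59, fell just short at 0.13 ± 0.05 (adjusted p = 0.0551), as did Top2a at 0.15 ± 0.07. Of 24 genes of replication licensing and DNA synthesis, 2 were higher and 5 lower, with a median of 0.01 and no call kept, and with deposited values 11 were higher and 2 lower. The helicase subunits Mcm2 (8.50, 8.61 and 8.63 against 8.92, 8.88 and 8.77; −0.28 ± 0.06), Mcm5 (−0.25 ± 0.05) and Mcm6 (−0.21 ± 0.05) were lower, but with deposited values they were at −0.06, −0.02 and 0.01. Pcna did not pass (−0.09 ± 0.05). Of 7 inhibitors of cyclin-dependent kinases, Cdkn2d (0.39 ± 0.06) and Cdkn1c (0.30 ± 0.05) were higher and 0 were lower. Of 12 genes of p53 and its targets 4 were higher and 0 lower, among them Phlda3 (0.42 ± 0.05), the cyclin Ccng1 (0.40 ± 0.05) and Sesn1 (0.35 ± 0.06).

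**Figure D3:**
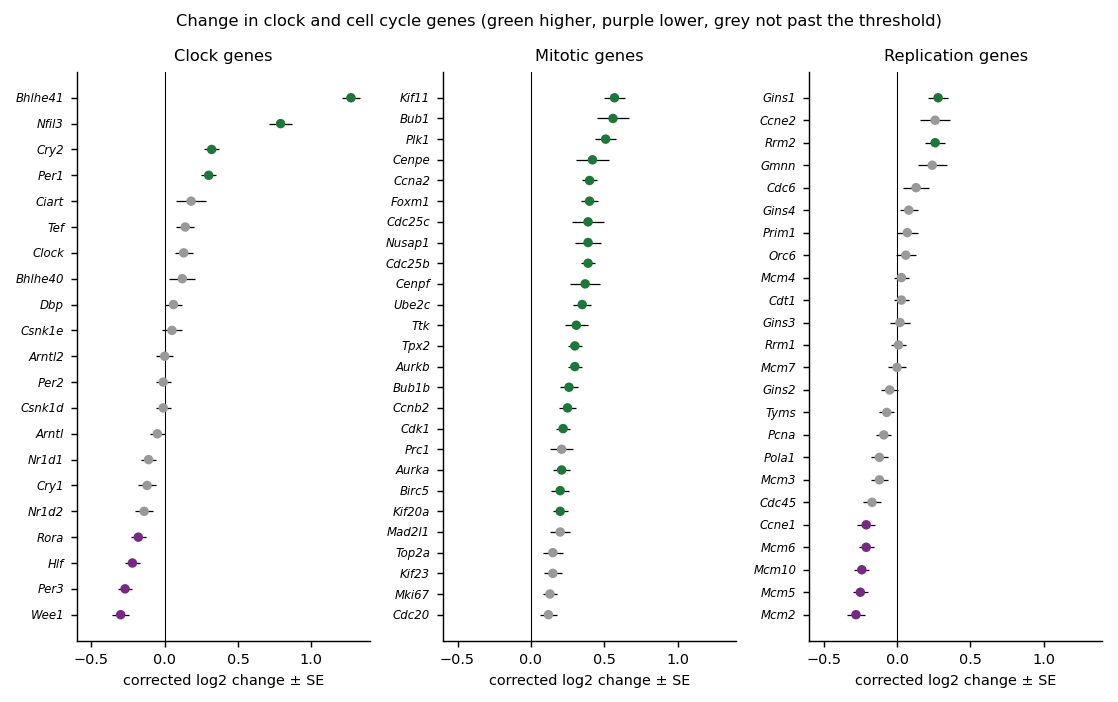
Corrected log2 change (clock-positive minus clock-negative, horizontal axis) with its standard error for clock genes, mitotic genes and replication genes; green points passed as higher, purple as lower and grey did not pass. Among clock genes Bhlhe41 (1.27) and Nfil3 (0.79) stand to the right of all others, all 26 mitotic genes lie above 0, and the replication genes lie on either side of 0.

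Genes of metabolism and stress gave single strong changes and few common shifts. Nqo1, a quinone reductase that NRF2 drives, read 7.78, 7.73 and 7.76 against 6.56, 6.55 and 6.61 (1.18 ± 0.05) and Gclm, a subunit of the enzyme that limits glutathione synthesis, was higher by 0.69 ± 0.06. Of 20 antioxidant genes, 6 were higher and 3 lower, with 3 of the higher calls kept (10 and 1 with deposited values); Txnrd1, also driven by NRF2, fell by 0.29 on the log2 scale. In the prostaglandin list 5 were higher and 5 lower of 13 (5 and 2 with deposited values). Hpgd read 9.30, 9.20 and 9.28 against 8.05, 7.74 and 7.94, far apart, while Ptgs2, the inducible cyclooxygenase, overlapped at 0.00 ± 0.08. The glucocorticoid receptor gene Nr3c1 was higher by 0.55 ± 0.05 and its targets Sgk1 and Fkbp5 by 0.53 ± 0.06 and 0.46 ± 0.06, the 3 kept calls among the 4 higher of 9. Of 19 immediate early genes, which dissociation of tissue can induce, 4 were higher and 3 lower, shares near those of all genes. With deposited values 12 were higher and 1 lower. Ier3 (0.88 ± 0.06) and Jun (0.41 ± 0.05) rose, Egr2 fell by 0.49 on the log2 scale, and Fos (−0.05 ± 0.05) and Egr1 (0.04 ± 0.06) did not pass. Oxidative phosphorylation genes gave 5 higher and 3 lower of 77 and cytosolic ribosomal protein genes 3 and 4 of 53. These abundant genes follow the scaling: with deposited values 46 of the 77 were higher, and with arrays scaled to the same spread 46 of the 77 and 47 of the 53 were lower. Sterol and fatty acid synthesis genes gave 4 higher and 3 lower of 22 (17 and 0 with deposited values), and interferon response genes 1 higher and 2 lower of 12.

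Before the genes that were lower are described, those of 1 family that skin is not known to use set a scale. Olfactory receptors are odour receptors of the nose. Of 1027 such genes on the array, 180 were bright enough to be tested. Of these, 142 (78.9%) were called lower in clock-positive cells, 0 were called higher, and the median change was −0.40. Over all 1027 the median was −0.22. By level it ran from −0.12 in genes below 5 to −0.70 in the 7 genes above 7.5. Only 26 of the 1027 lay above level 7, so for brighter genes the scale rests on few. The changes of the 180 tested genes ran from −1.06, for Olfr239 (7.60, 7.5 and 7.48 against 8.47, 8.80 and 8.50), to 0.13. Of the lower calls, 116 were kept, and with deposited values 174 were lower and 0 higher. They make up 34 of the 252 genes that were lower by at least 1.5-fold, or 13.5%, and without them 2059 genes were lower, 218 of them by that fold. Vomeronasal receptors (5 of 7 lower), taste receptors (3 of 5 lower) and microRNA genes (58 of 103 lower, 4 higher) went the same way. The last 3 families were added after values were seen, and what lowers them in the clock-positive arrays was not tested. A fall within the range of the olfactory receptors is therefore no larger than one seen in genes with no known role in these cells. Only 48 genes called lower had a change below −1.06, of which 41 have a gene name of their own.

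Among genes called lower that have a name of their own, the largest falls were in the cornified envelope, the protein shell of dead surface cells. The predicted genes Gm10228 and Gm10229, named here after their values were seen, fell further, by 2.53 and 2.23 on the log2 scale. Lce1b, a late cornified envelope protein, read 8.70, 8.36 and 8.48 against 10.59, 10.65 and 10.63 (−2.11 ± 0.08, 4.32-fold, adjusted p = 1.35e-06). Lce1c read 7.85, 8.07 and 8.04 against 9.77, 10.14 and 10.10 (−2.02 ± 0.10) and Lce1a1 8.71, 8.44 and 8.45 against 10.34, 10.44 and 10.47 (−1.88 ± 0.08). All 3 stood far lower on every clock-positive array. The filaggrin-like proteins Flg2 (−1.77 ± 0.07) and Hrnr (9.77, 9.76 and 9.85 against 11.15, 11.21 and 11.13; −1.37 ± 0.05) fell with them, as did loricrin (Lor; 10.62, 10.68 and 10.56 against 11.89, 11.93 and 11.91; −1.29 ± 0.05), the main protein of the shell, and corneodesmosin (Cdsn; −1.20 ± 0.06), which glues its cells together. Of 28 cornified envelope genes tested, 26 were lower and 2 higher, with 24 of the lower calls kept and a median of −1.01; 17 more lay below the filter. The transglutaminases, which crosslink the shell, parted: Tgm1 and Tgm3 fell by 0.66 and 0.58 on the log2 scale, while Tgm5 read 10.96, 10.95 and 10.96 against 9.71, 9.75 and 9.70 and was higher by 1.23 ± 0.05. Involucrin (Ivl), which appears earlier in differentiation, fell by 0.53 on the log2 scale, and the keratins Krt1 (−0.12 ± 0.05) and Krt10 (−0.07 ± 0.06) of the first layer above the basal cells did not pass. Of 16 kallikreins and their inhibitors, proteases that let surface cells shed, 12 were lower and 1, Prss8, higher (0.40 ± 0.06), but only 3 of the lower calls were kept and 7 were lower with deposited values, with Klk7 at −0.70 ± 0.05. Members of the Lce1 family are alike in sequence, so that a probe set may read more than 1 of them.

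The 3 Lce1 genes lie in 1 cluster on chromosome 3, and the 60 bases before their start sites show how alike they are; the run TAAAA, in capitals, lies at a like distance in each. Lce1a1 (chr3:92648308-92648367) and Lce1b (chr3:92656927-92656986) are on the minus strand and Lce1c (chr3:92679187-92679246) on the plus strand, from RefSeq for GRCm38.p6.
Lce1a1: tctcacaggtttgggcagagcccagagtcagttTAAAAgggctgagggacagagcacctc
Lce1b: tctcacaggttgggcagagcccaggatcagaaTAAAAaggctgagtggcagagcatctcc
Lce1c: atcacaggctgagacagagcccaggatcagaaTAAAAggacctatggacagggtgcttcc
TAAAA begins 27 bases before the start in Lce1a1 and 28 before it in Lce1b and Lce1c. On either strand it is found in 11.4% of all promoters within 60 bases before the start. It can overlap TATAAA, the core of the TATA box, which 3.92% hold there. Hrnr (chr3:93319689-93319748, plus strand) and Lor (chr3:92083143-92083202, minus strand) of the same region hold TATAAA, in capitals.
Hrnr: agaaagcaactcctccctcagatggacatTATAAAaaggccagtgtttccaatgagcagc
Lor: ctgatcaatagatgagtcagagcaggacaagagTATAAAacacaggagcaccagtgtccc
The run begins 31 bases before the start in Hrnr and 27 in Lor. S100a4 of the same chromosome, which was higher in clock-positive cells, holds it as well, 31 bases before its start (chr3:90603710-90603769, plus strand).
S100a4: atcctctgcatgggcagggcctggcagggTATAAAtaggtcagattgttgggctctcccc

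Genes of the hair shaft and its sheath were also lower in clock-positive cells. Of 28 hair keratin-associated proteins tested, 26 were lower and 0 higher, with 25 calls kept and a median of −0.81; 16 more lay below the filter. Krtap6-3 read 5.5, 6.51 and 6.07 against 8.15, 7.83 and 8.10 (−2.0 ± 0.21, adjusted p = 1.94e-04), with clock-positive array 2 above the other clock-positive arrays. Krtap8-1 read 7.17, 7.2 and 6.79 against 9.10, 8.96 and 9.11 (−2.0 ± 0.11). Neither overlapped between the sorts. Krtap6-5 (−1.75 ± 0.09) was the next of the family, whose members are again alike in sequence. All 7 inner root sheath genes tested were lower, 6 of them kept. Krt27, a keratin of the sheath, read 7.07, 6.98 and 7.09 against 8.05, 8.17 and 8.06 (−1.05 ± 0.06), trichohyalin (Tchh) fell by 1.01 on the log2 scale and Krt73 fell by 0.82. Of 9 hair keratins, 5 were lower and 0 higher, with Krt33a and Krt33b at −0.74 ± 0.06 and −0.74 ± 0.05. Epithelial keratins gave 3 higher and 6 lower of 19: beside Krt24 and Krt15, Krt6a rose, with 9.21, 9.21 and 9.18 against 8.30, 8.56 and 8.73 (0.67 ± 0.10), and Krt23 fell by 0.86 on the log2 scale. Krt5, the keratin of basal cells, overlapped at −0.03 ± 0.05.

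Several genes of other cells that the sort could hold were lower as well. The T cell receptor chain Cd3g read 7.33, 7.52 and 7.39 against 9.46, 9.18 and 9.21 (−1.87 ± 0.08, 3.67-fold, adjusted p = 2.31e-06). Cd7, a surface protein of T and natural killer cells, read 7.88, 7.77 and 7.89 against 9.76, 9.59 and 9.55 (−1.78 ± 0.07) and Cd3e 7.59, 7.55 and 7.60 against 8.88, 8.93 and 8.98 (−1.35 ± 0.05). None of them overlapped. Of 12 T cell genes tested, 9 were lower and 0 higher, 7 of them kept. The median of the 12 was −0.45, close to the −0.40 of the olfactory receptors, while Cd3g, Cd7 and Cd3e fell beyond the olfactory range. Cd8a (−0.10 ± 0.05) and Cd5 (−0.09 ± 0.09) did not pass. Cd4 lay below the filter at 5.79, 5.78 and 5.78 against 5.77, 5.77 and 5.93. Over the 18 T cell genes on the array the summed intensity was 2090 to 2140 on clock-positive and 3750 to 4020 on clock-negative arrays. Some genes known from cytotoxic lymphocytes were among the falls: Nkg7 was at −1.66, the protease Ctsw at −1.07 and the chemokine Xcl1 at −1.02. They were brought together after their values were seen and had no list of their own, so other genes of these cells were not counted. The fall of Xcl1 lies within the range of the olfactory receptors.

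Of 13 genes of Langerhans and other myeloid cells, 8 were lower and 3 higher, and all 8 lower calls were kept. The median was −0.57. The lowest change, −0.94, lies within the range of the olfactory receptors, which reached −1.06 and of which 78.9% were lower. No olfactory receptor gene had a mean level above 9.66, and H2-Ab1, the gene with that change, was brighter. For genes as bright as this the olfactory receptors give no scale. The MHC class II chain H2-Ab1 read 9.46, 9.47 and 9.55 against 10.36, 10.42 and 10.51 (−0.94 ± 0.06), with H2-Eb1 and Cd74, the invariant chain, at −0.93 ± 0.05 and −0.84 ± 0.06 and Cd207, which encodes langerin, at −0.42 ± 0.07. The macrophage genes Fcgr3 (0.70 ± 0.08) and C1qc (0.57 ± 0.13) were higher. The summed intensity of the 17 genes on the array was 2990 to 3080 on clock-positive and 4540 to 4840 on clock-negative arrays. Of red blood cell genes, Alas2, the first enzyme of haem synthesis in these cells, fell by 1.79 on the log2 scale and the anion exchanger Slc4a1 fell by 0.72, the 2 that were lower of 3 tested. Igha, the constant region of immunoglobulin A, read 8.08, 8.21 and 8.23 against 9.32, 9.95 and 9.55 (−1.43 ± 0.14).

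Other cell types showed smaller or mixed differences. Of 14 genes of endothelium, 9 were higher and 0 lower, all kept and none at a fold of 1.5, with Emcn at 0.56 ± 0.06, Cdh5 at 0.41 ± 0.06 and Pecam1 at 0.34 ± 0.05; their summed intensity was 4920 to 5020 against 4120 to 4220. Of 7 melanocyte genes, the pigment genes Mlana and Pmel were at −0.74 and −0.68, Kit was also lower, and the factor Mitf read 8.58, 8.51 and 8.50 against 7.44, 7.40 and 7.43 (1.11 ± 0.05). With deposited values 1 was higher and 6 lower. Tyr, the enzyme that defines the pigment cell, lay below the filter in both sorts. Fibroblast genes gave 0 higher and 2 lower of 6, with Pdgfra at 0.03 ± 0.06. Smooth muscle and pericyte genes gave 2 higher and 1 lower of 6, with Cspg4 at 0.92 ± 0.08. Skeletal muscle genes gave 1 higher and 2 lower of 6, and of the 4 sebocyte, 3 adipocyte, 2 mast cell and 3 Schwann cell genes tested, 0 passed with corrected values. Genes of interfollicular basal cells gave 2 higher and 3 lower of 7 (3 and 1 with deposited values), cadherins and desmosome proteins 3 and 2 of 14 (4 and 0), and sex-linked genes 1 and 0 of 3. The stromal chemokine Cxcl12 was higher by 1.05 ± 0.07, and of 18 chemokines 4 were higher and 4 lower (3 and 11 with deposited values). The part of other cell types in the cornified envelope, hair shaft and bulge results was not tested.

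**Figure D4:**
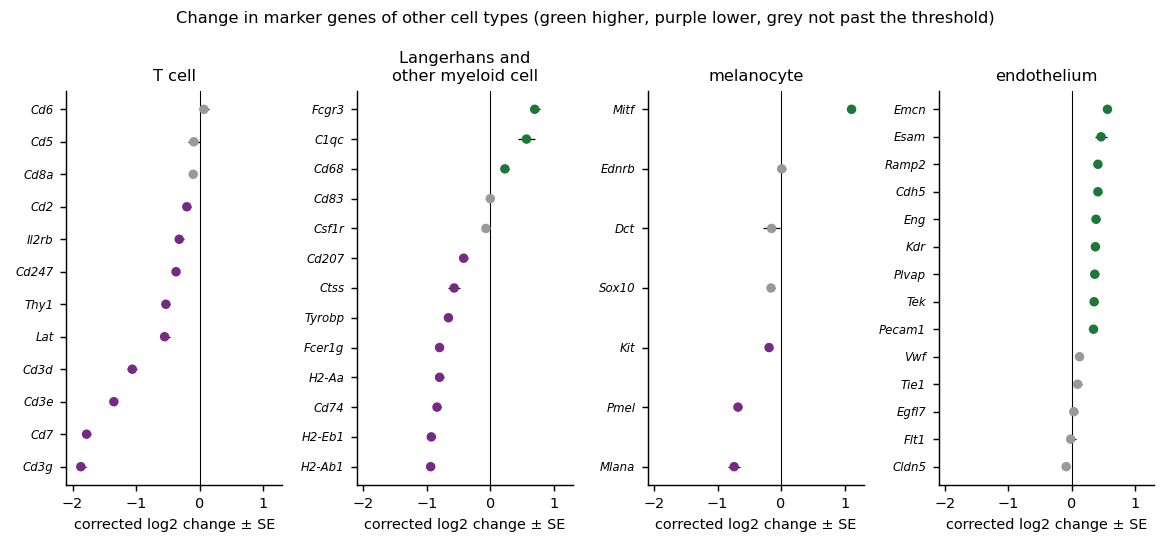
Corrected log2 change (clock-positive minus clock-negative, horizontal axis) with its standard error for the tested marker genes of 4 other cell types; green points passed as higher, purple as lower and grey did not pass. T cell genes reach −1.87, the MHC class II genes lie near −0.9, the endothelial genes lie between −0.09 and 0.56, and Mitf stands apart from the pigment genes.

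**Figure D5:**
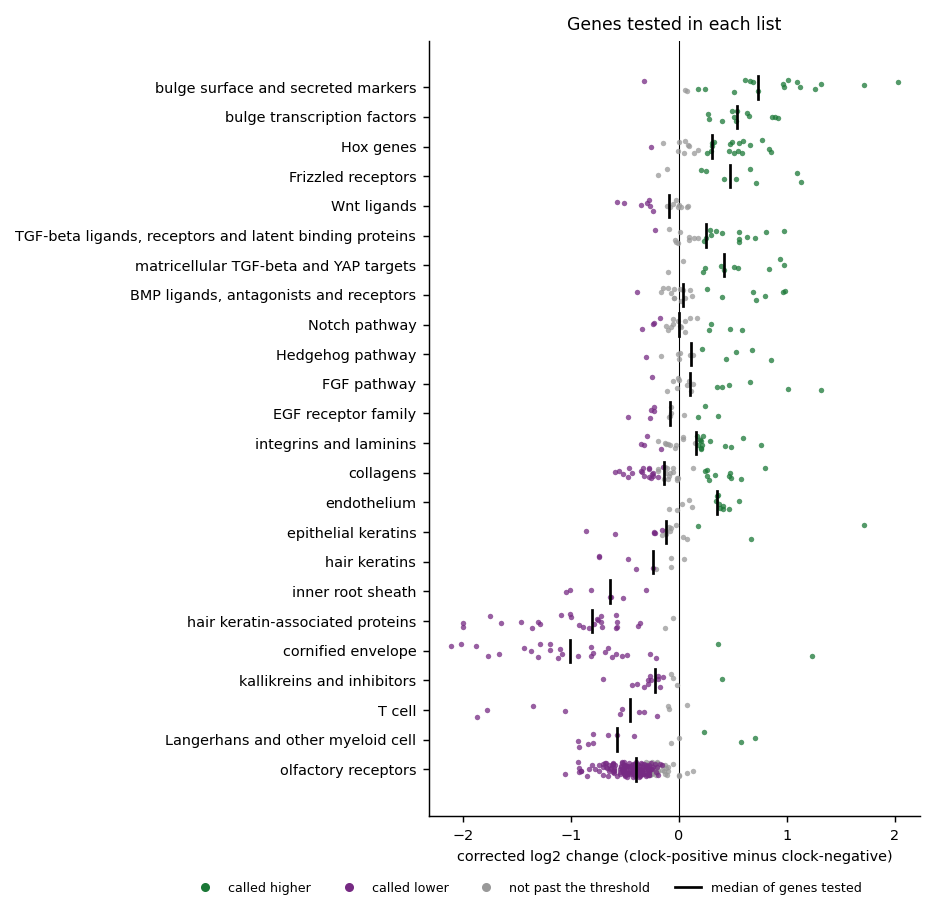
Corrected log2 change (horizontal axis) of every tested gene in 24 gene lists, with the list median as a vertical bar; green points passed as higher, purple as lower and grey did not pass. The cornified envelope, keratin-associated protein and T cell lists extend further to the left than the olfactory receptors at the bottom, whose lowest value is −1.06, while the Wnt ligand, collagen and kallikrein falls lie within their range.

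The remaining genes among the 25 that fell most were the whey acidic protein family member Wfdc21 (−1.76 ± 0.07), the late differentiation gene Crct1 (−1.66 ± 0.06), the epidermal cytochrome P450 gene Cyp2b19 (−1.44 ± 0.06), Srsy, which 10 probe sets read (−1.74 ± 0.17), and the microRNA gene Mir680-1. Also in this group were Krtap6-2, Krtap7-1 and Krtap1-5 and the late envelope genes Lce1l, Lce1a2 and Lce1i. Mir680-1 read 8.48, 8.42 and 8.16 against 9.64, 9.69 and 9.96 (−1.41 ± 0.11). Mir680-1 lies on chromosome 6. Mir680-2, on chromosome X, read 9.67, 9.64 and 9.59 against 10.79, 10.82 and 10.91 (−1.21 ± 0.05), and Mir140, the largest rise of a microRNA gene, 7.35, 7.54 and 7.31 against 6.30, 6.30 and 6.01 (1.20 ± 0.09); these 2 were chosen after their values were seen. Both Mir680 genes carry the same mature sequence, given with that of miR-140-3p from RefSeq (GRCm38.p6), with the seed, bases 2 to 8, in capitals. The arrays read total RNA over these genes and not the mature forms.
miR-680: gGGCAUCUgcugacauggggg
miR-140-3p: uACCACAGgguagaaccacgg
The seeds differ.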

How the data were processed

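The 6 bulge arrays, 3 of clock-positive and 3 of clock-negative cells, were read from the value table, which holds the deposited log2 intensities. The authors made them with RMA, per the submitters' processing notes. The RMA version is not given in the sources used here. No column of another sample was used. Probe sets were named through the platform annotation given for the arrays: of 34760 filled probe sets 21640 had 1 symbol, 1321 several and 11799 none. Of the named ones, 21553 matched RefSeq by Entrez identifier.

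All filled probe sets were corrected together with cyclic loess (fast method, span 0.7, 3 iterations) in limma 3.58.1 (R 4.3.3). The probe set with the highest mean was kept for each of 19937 symbols (954 had more than 1), and the dimmest 30% of genes, below a level of 6.27, were left out. The remaining genes were tested with limma's lmFit and eBayes, two-sided, with Benjamini-Hochberg adjustment over all of them. The steps were also run on simulated data, in which far fewer genes were changed than were called here, as many raised as lowered. That run cannot tell how the smoothing does with changes as many and as uneven as these. Replicates are separate pools by their labels, so p-values measure the spread between these pools. Members and gene lists were chosen with earlier results of these data known; the lists of Wnt ligands, Frizzled, vomeronasal and taste receptors and microRNA genes were added after values were seen. Genes named are the 5 markers and the 25 in each direction that changed most among called named genes whose sorts did not overlap. The first 3 of each list and the called members that changed most are named as well. Summed intensities are sums of 2 raised to the corrected value. The alternatives covered scaling, the smoothing, the filter, the choice of probe set, the variance prior, a replicate block and each array left out.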

Additional observations from a re-analysis of the deposited data

How the results depend on the processing

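The counts depended most on how the arrays were scaled. With deposited values 6308 genes were higher (3524 in the corrected fit), and after median centring 8919 were higher, 1356 lower, 1587 higher by at least 1.5-fold and 142 lower by that fold. With the lowest 50% of genes left out, 321 were higher by at least 1.5-fold, since fewer genes were tested. The other scalings, smoothings and filters stayed within 1.5 times the main counts. Leaving out each array in turn gave 2682 to 3728 genes higher, 1587 to 2372 lower, 431 to 562 higher by at least 1.5-fold and 229 to 290 lower by that fold. Deviations of same-numbered arrays correlated at 0.18, 0.19 and −0.06. Those of differently numbered arrays were not compared, so these values cannot tell whether pools of the same number belong together. With a replicate block 3614 genes were higher, 2292 lower, 487 higher by the fold and 253 lower by it.

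Small changes turned sign under some scalings, among them calls well past the threshold such as those of Wee1, Per3, Mcm2 and Mcm5; the cause was not tested. With deposited values Arntl was at 0.16, Axin2 at 0.04, Fos at 0.17, Hlf at 0.00, Mcm6 at 0.01, Pdgfra at −0.18, Ptch1 at 0.21 and Smad2 at 0.20. Under median centring, which moved the median of all genes to 0.29, Arntl was at 0.31, Axin2 0.19, Cry1 0.19, Fgfr2 0.20, Fos 0.32, Fzd6 0.24, Hes1 0.31, Hlf 0.15, Mcm2 0.08, Mcm5 0.12, Mcm6 0.15, Notch1 0.23, Notch3 0.10, Nr1d1 0.22, Pcna 0.20, Per2 0.26, Per3 0.08, Ptch1 0.35, Rora 0.12, Smad2 0.35, Smad3 0.26, Tgfbr3 0.13 and Wee1 0.07. Krt15 was at −0.47 with arrays scaled to the same median and spread. Under quantile normalization, the other smoothings, the filters and without each array in turn, no gene named here that was called in either fit turned sign. Genes with low signal over background are the least certain, and 5981 genes below the filter were not tested.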
